A study of Mus musculus with 9 samples.

Results

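The Slc13 family comprises 5 mouse genes, Slc13a1 to Slc13a5, which were taken by name from the 24421 genes listed in each count table. The family was selected on the measured counts of Slc13a5, for their large difference between the groups compared here, so the group differences of its members are given as a description, without a test. RNA from whole liver of C57BL/6J mice aged 5 weeks was sequenced in 5 libraries from control littermates (labelled Wildtype, WT below) and in 4 libraries from mice lacking OGT (labelled OGT-deficient). OGT, O-GlcNAc transferase, attaches N-acetylglucosamine to nuclear and cytoplasmic proteins. All mice had been without food for 6 h, and both sexes were used. The promoter or cell type in which the deletion was made, its extent and the sex and litter of each mouse are stated in none of the sources used here.

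SLC13 proteins are plasma membrane carriers that use the sodium gradient to bring small anions into the cell. SLC13A5 (NaCT, the mammalian counterpart of the fly protein Indy) prefers citrate, which in the liver cell can be cleaved to acetyl-CoA for the synthesis of fatty acids and sterols. SLC13A3 (NaDC3) and SLC13A2 (NaDC1) carry dicarboxylates such as succinate, and SLC13A1 (NaS1) and SLC13A4 (NaS2) carry sulfate. SLC13A5 is known as the liver member, whereas SLC13A1 and SLC13A2 are best known from kidney and intestine.

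The sequences around the transcript starts of the members that differed most between the groups are shown because their levels are the subject of what follows. They are RefSeq sequences of build GRCm38.p6, each running from 250 bases before to 50 bases after an annotated start, and each lies on the minus strand. RefSeq lists 2 starts for Slc13a5, at positions 72267161 and 72266604 of chromosome 11, and a count per gene cannot tell which start was used. The windows are chr11:72267112-72267411 and chr11:72266555-72266854 for Slc13a5, chr2:165473148-165473447 for Slc13a3 and chr11:78422185-78422484 for Slc13a2. Capitals mark every match to the 8 motifs listed after the sequences.
Slc13a5, start at 72267161: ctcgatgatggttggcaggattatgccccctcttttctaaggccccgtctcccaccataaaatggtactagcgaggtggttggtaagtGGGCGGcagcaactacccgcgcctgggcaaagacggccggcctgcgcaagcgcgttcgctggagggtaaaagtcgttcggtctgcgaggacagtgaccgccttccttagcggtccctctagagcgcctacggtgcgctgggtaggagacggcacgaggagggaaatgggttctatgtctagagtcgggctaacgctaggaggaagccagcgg
Slc13a5, start at 72266604: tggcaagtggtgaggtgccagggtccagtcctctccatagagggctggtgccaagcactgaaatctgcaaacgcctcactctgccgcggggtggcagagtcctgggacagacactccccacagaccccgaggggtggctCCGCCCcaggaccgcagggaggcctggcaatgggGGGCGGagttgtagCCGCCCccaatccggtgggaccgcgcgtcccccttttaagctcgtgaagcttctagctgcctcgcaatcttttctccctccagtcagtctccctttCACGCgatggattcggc
Slc13a3: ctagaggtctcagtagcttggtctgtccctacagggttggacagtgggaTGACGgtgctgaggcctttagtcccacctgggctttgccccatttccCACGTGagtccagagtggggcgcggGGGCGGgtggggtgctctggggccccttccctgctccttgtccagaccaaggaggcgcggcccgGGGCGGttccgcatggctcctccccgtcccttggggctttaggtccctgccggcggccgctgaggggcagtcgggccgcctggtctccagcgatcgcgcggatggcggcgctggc
Slc13a2: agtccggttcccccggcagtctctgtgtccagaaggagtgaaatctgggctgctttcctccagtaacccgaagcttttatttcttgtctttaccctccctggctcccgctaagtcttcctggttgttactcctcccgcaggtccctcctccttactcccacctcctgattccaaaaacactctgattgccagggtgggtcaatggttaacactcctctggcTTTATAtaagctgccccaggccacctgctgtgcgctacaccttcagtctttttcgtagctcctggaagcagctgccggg

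Motifs were searched on both strands. Of 32817 mouse windows of the same length, 32.4% hold the AhR core GCGTG, 1.79% the full cAMP response element TGACGTCA, 20.8% its core TGACG, 7.15% the E-box CACGTG, 8.29% the STAT motif TTCNNNGAA, 0.0152% the nuclear receptor repeat DR4, 13.6% TATAAA and 35.6% the GC box GGGCGG. The core TGACG also lies inside TGACGTCA. In the window of the upstream Slc13a5 start only a GC box matched. The downstream window held 3 GC boxes, and an AhR core on the opposite strand 34 bases past the start. The Slc13a3 window held 2 GC boxes, an E-box and a TGACG core, and the Slc13a2 window held TATAAA on the opposite strand, 29 bases before the start. These are matches of letters, not sites shown to be bound. The Slc13a5 windows held 25 and 17 CpG dinucleotides and the Slc13a3 window held 22, against 8 in the Slc13a2 window and a median of 7 over all windows.

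The libraries held 32337861 to 54130901 counts assigned to genes, so that a single count corresponded to 0.0191 to 0.0347 CPM, the unit below, in which each count is taken relative to its library's total after TMM scaling (edgeR's trimmed mean). Ogt itself stood at 51.1 to 73.1 CPM in the 5 WT libraries and at 14.3 to 20.6 CPM in the 4 OGT-deficient libraries, so each library carried the difference its label names. The hepatocyte markers checked the tissue, with albumin (Alb) at 73880 ± 9066 CPM (SD, n = 5) and, without OGT, 33491 ± 3673 CPM (SD, n = 4). Alignments to several places numbered 0.314 to 1.02 per assigned count in WT and 0.205 to 0.224 in OGT-deficient libraries. No longest transcript of a family member shared a stretch of 50 bases with another listed gene.

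Slc13a5 (chromosome 11, 72241989 to 72267222, minus strand, GRCm38) was low in control liver and far higher in every library without OGT. In order of replicate, its CPM was 1.15, 1.09, 1.54, 1.49 and 1.46 in the WT libraries, from 43 to 55 counts, and 35.3, 35.6, 30.4 and 30.0 in OGT-deficient 1 to 4, from 1227 to 1675 counts. All 4 OGT-deficient libraries lay far above all 5 WT libraries, and the spread within each group was small. The WT mean was 1.35 ± 0.209 CPM (SD, n = 5) and the OGT-deficient mean 32.8 ± 3.01 CPM (SD, n = 4). That is 24.6-fold, or 4.62 on the log2 scale with an SE of 0.12. Over the libraries left out in turn the log2 fold change was 4.55 to 4.68. Among 24026 genes with a known exon length, Slc13a5 ranked 12027 from the top in mean CPM per kb of exon in WT and 4441 in OGT-deficient liver, where it lay at percentile 81.5. By log2 fold change it stood at place 81 among the higher genes of the 14104 tested.

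Slc13a3 (chromosome 2, 165405028 to 165473230, minus strand), the carrier of succinate, alpha-ketoglutarate and N-acetylaspartate, was the main family transcript of control liver and was also higher without OGT. In replicate order the controls had 21.2, 15.2, 19.2, 10.9 and 15.8 CPM, and OGT-deficient 1 to 4 had 28.6, 45.4, 34.7 and 49.2 CPM. The groups did not overlap, but the lowest OGT-deficient library, OGT-deficient 1, lay close above WT 1. The mean was 16.5 ± 3.96 CPM (SD, n = 5) against 39.5 ± 9.46 CPM (SD, n = 4), which is 1.26 on the log2 scale with an SE of 0.19. The coefficient of variation of Slc13a3 was 24.0% in each group, against 15.5% and 9.17% for Slc13a5. OGT-deficient 4 had the highest value for Slc13a3 and the lowest for Slc13a5.

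Slc13a2 (chromosome 11, 78397087 to 78422217, minus strand), the carrier of citrate and dicarboxylates known from kidney and intestine, went the other way at a very low level. Controls 1 to 5 had 26, 28, 25, 38 and 18 counts and OGT-deficient 1 to 4 had 2, 3, 4 and 2, and every WT library exceeded every OGT-deficient one. In CPM this was 0.740 ± 0.329 (SD, n = 5) against 0.0607 ± 0.0177 (SD, n = 4). The pooled counts of 135 and 11, scaled to library size, gave a WT level 11.5-fold the OGT-deficient level, with an exact 95% interval of 6.23 to 23.6 that covers counting error only. WT 4, at 1.32 CPM, stood above the other WT libraries, which lay between 0.537 and 0.701 CPM. The antisense gene Slc13a2os covers 26.2% of the exonic bases of Slc13a2, and no source used here says whether counting used the strand. Slc13a2os itself had 0 to 3 counts in any library.

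The sulfate carriers were scarcely detected. Slc13a4 (chromosome 6, 35267957 to 35308131, minus strand), known from placenta and brain, had 7 to 18 counts in the WT libraries and 15 to 19 in the OGT-deficient ones. Its level was 0.286 ± 0.111 CPM (SD, n = 5) and 0.358 ± 0.05 CPM (SD, n = 4), the groups overlapped, and the log2 fold change was 0.32 with an SE of 0.35, which places an interval of 2 SE at -0.39 to 1.03. Slc13a1 (chromosome 6, 24088283 to 24168092, minus strand) had 0 counts in 8 libraries and 2 counts in OGT-deficient 1. A count of 0 allows up to 3 counts, which is 0.0572 to 0.104 CPM in these libraries, so a difference in Slc13a1 was not detectable at this depth.

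**Figure D1:**
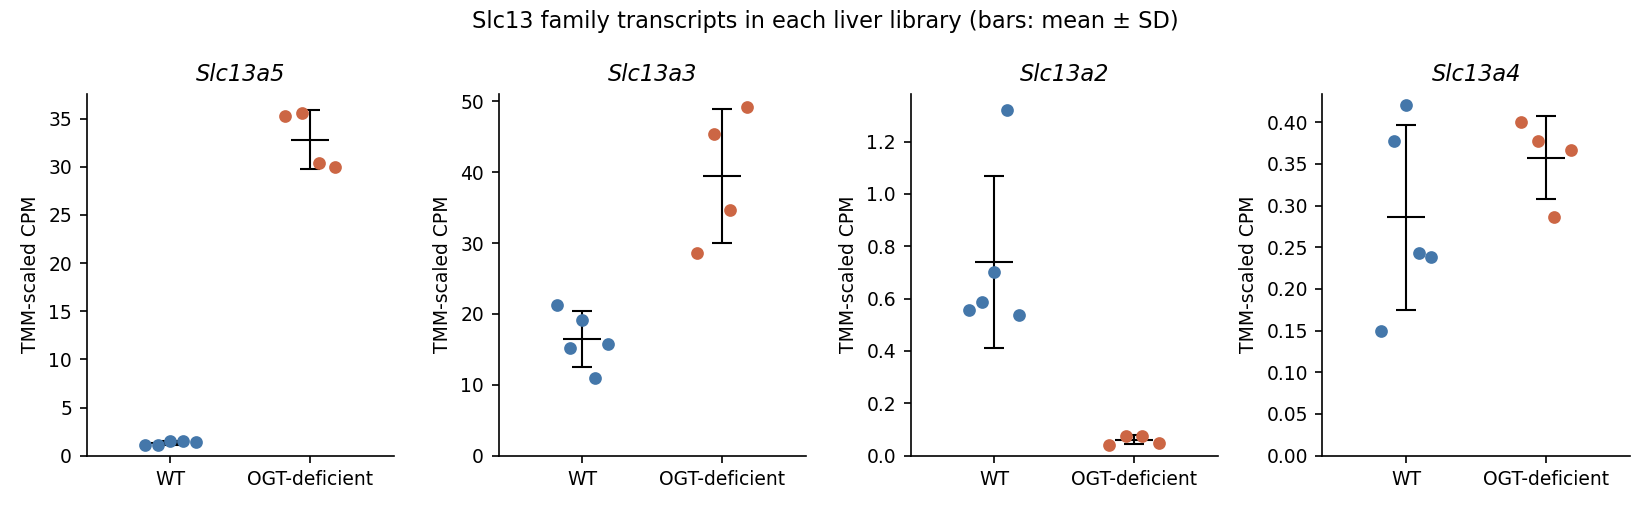
TMM-scaled CPM of the 4 family members with counts in every library. Each point is a library, the long bar is the group mean and the whiskers are 1 SD (n = 5 WT, n = 4 OGT-deficient). Slc13a5 and Slc13a3 were higher and Slc13a2 lower in all OGT-deficient libraries, while the Slc13a4 values overlapped.

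Of the 5 members, 4 passed the filter on low counts, Slc13a2 through its WT libraries alone, and 3 of these 4 were called at an adjusted p under 0.05, against 61.1% of all 14104 tested genes. The same 3 did not overlap between the groups, against 51.3% of all tested genes. Because the family was picked in this contrast, nothing is read from these shares.

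Per kb of exon, the summed family level was 3.8 ± 0.655 CPM per kb (SD, n = 5) in WT and 14.3 ± 1.71 CPM per kb (SD, n = 4) in OGT-deficient liver. In WT, Slc13a3 supplied 69.9 to 89.1% of this sum, Slc13a5 5.13 to 10.1%, Slc13a2 5.05 to 18.2% and Slc13a4 0.725 to 2.42%. Slc13a3 was the leading member in all 5 WT libraries. The order of Slc13a5 and Slc13a2 varied between WT libraries, with Slc13a5 at 0.273 ± 0.0423 and Slc13a2 at 0.307 ± 0.137 CPM per kb, so that these neighbours in the order did not differ beyond their spread. In OGT-deficient liver Slc13a5 supplied 39.0 to 56.0% and Slc13a3 43.1 to 60.4%, and the others together supplied little. The level of Slc13a5 per kb divided by that of Slc13a3 was 0.0575 to 0.144 in WT and 1.3, 0.828, 0.925 and 0.645 in OGT-deficient 1 to 4. Slc13a5 led in OGT-deficient 1 and Slc13a3 in the other 3, and their means of 6.65 ± 0.610 and 7.57 ± 1.81 CPM per kb lay within the spread of each other.

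**Figure D2:**
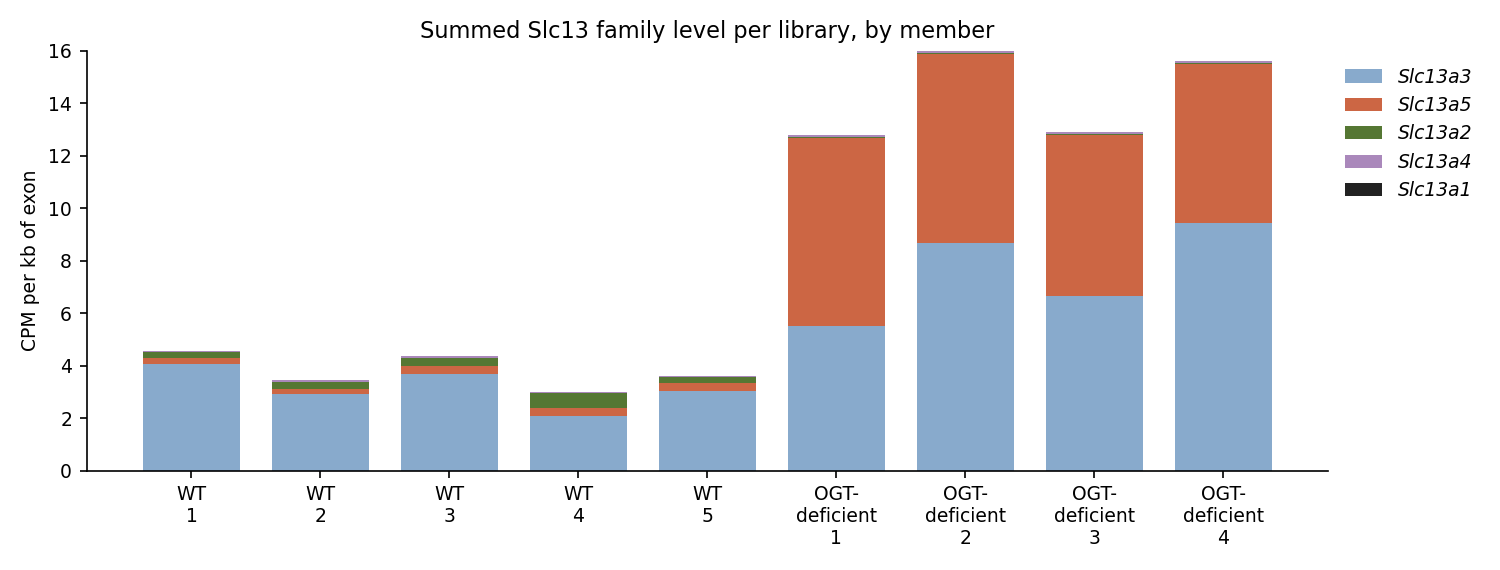
Level of each family member in CPM per kb of exon, stacked for each of the 9 libraries. The sum was 3.0 to 4.56 in WT, of which Slc13a3 made up 69.9 to 89.1%, and 12.8 to 16.0 in OGT-deficient libraries, where Slc13a5 made up 39.0 to 56.0%.

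Position on the chromosome was not used to pick the family, and the 3 listed genes on each side of each member were examined. Around Slc13a5, the protein genes Txndc17 and Med31 were not called (log2 fold changes -0.22 and 0.10, adjusted p = 0.0711 and 0.537 in edgeR's quasi-likelihood test; Txndc17 had 0.0314 without WT 1 and 0.0198 without OGT-deficient 1), and the interferon-inducible gene Xaf1 rose by 0.51 (adjusted p = 0.00876). The adjacent noncoding gene 4930563E22Rik had 0.0181 ± 0.0301 CPM in WT against 0.272 ± 0.0480 CPM, from 0 to 2 counts per WT library and 10 to 16 per OGT-deficient library, and another gene covers 13.7% of its exonic bases. It passed the filter through the OGT-deficient libraries alone, so no p is given. The noncoding gene 1700051A21Rik, on the opposite strand across the start region of Slc13a5, covers 9.57% of its exonic bases. It had 0 to 2 counts in the WT libraries and 14, 21, 22 and 5 in OGT-deficient 1 to 4. It did not pass the filter. The strand setting is not given, so how reads were counted where it overlaps Slc13a5 is not known.

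Around Slc13a3, Ocstamp (log2 fold change 1.64, adjusted p = 5.32e-05), which takes part in osteoclast fusion, and Trp53rka (0.63, adjusted p = 9.30e-05) rose. Zfp334 was not called (0.06, adjusted p = 0.816). The sugar transporter gene Slc2a10 had 1 to 10 counts per WT library and 25 to 31 per OGT-deficient library. Slc2a10 passed the filter through the OGT-deficient libraries alone, so no p is given. Near Slc13a2, which was lower without OGT, Unc119 rose by 0.65 (adjusted p = 0.00783). Sarm1, an NAD-cleaving enzyme of neurons, stood at 0.398 ± 0.245 CPM in WT and at 2.19 ± 0.631 CPM without OGT. Its WT libraries alone would not have passed it through the filter, so no p is given. The folate transporter gene Slc46a1 (0.03, adjusted p = 0.857) and the vitronectin gene Vtn (-0.27, adjusted p = 0.0697) were not called there, although Vtn had an adjusted p of 0.0356 without OGT-deficient 2, 0.0376 without OGT-deficient 4 and 0.029 in DESeq2. Beside Slc13a4, whose values overlapped, Fam180a rose by 2.51 (adjusted p = 2.31e-06) and the nuclear pore gene Nup205 by 1.0 (adjusted p = 1.45e-06), while Cnot4, 1810058I24Rik and Mtpn were not called (log2 fold changes -0.08, 0.27 and 0.10, adjusted p = 0.62, 0.0765 and 0.306). With upper-quartile scaling, 1810058I24Rik and Mtpn had adjusted p of 0.0124 and 0.0329, and 1810058I24Rik had 0.0101 without WT 4 and 0.0367 without OGT-deficient 3. The only tested neighbour of Slc13a1 was the respiratory chain gene Ndufa5, which fell by 0.56 (adjusted p = 0.00123).

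**Figure D3:**
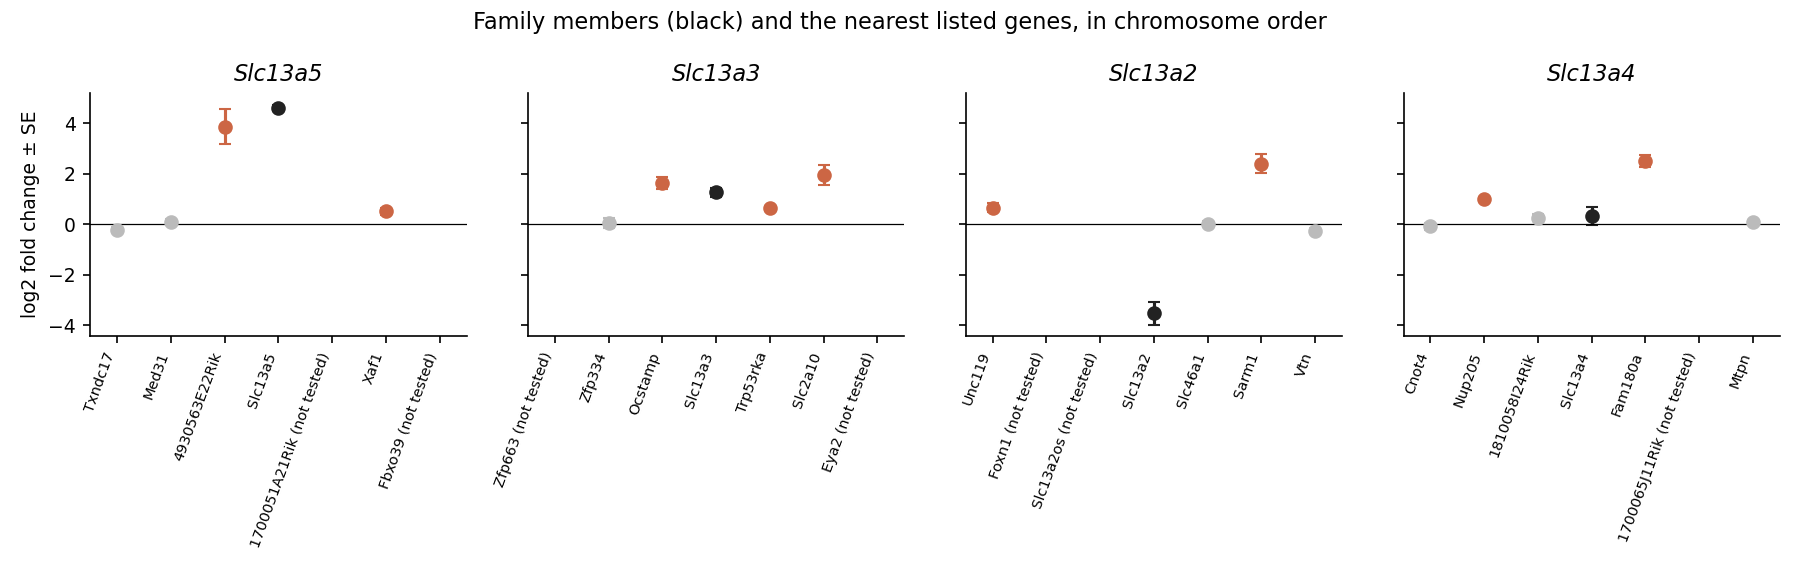
Log2 fold change of OGT-deficient against WT with its SE for 4 family members (black) and the 3 nearest listed genes on each side, in chromosome order and not to distance. Neighbours higher at an adjusted p under 0.05 are orange and those not called grey. The orange of 4930563E22Rik, Slc2a10 and Sarm1 is not read, since these genes passed the filter through the OGT-deficient libraries alone. Next to Slc13a5 at 4.62, Txndc17 and Med31 sit near 0, Xaf1 at 0.51 and the noncoding gene 4930563E22Rik, with 0 to 2 counts in WT, at 3.87.

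Citrate that enters through SLC13A5 joins the citrate that mitochondria export through the citrate carrier Slc25a1, and ATP citrate lyase (Acly) cleaves it to acetyl-CoA. Of 16 genes of citrate cleavage and fatty acid synthesis, 6 rose and 6 fell, and the list's median log2 fold change was 0.04. Of all 14104 tested genes 31.6% rose and 29.4% fell, with a median of 0.02, and every list count that follows stands beside these shares. In replicate order, the controls had 257.6, 248.1, 364.8, 297.1 and 261.1 CPM of Acly, and the OGT-deficient libraries had 353.8, 591.2, 533.2 and 581.8 CPM. It was higher in 3 OGT-deficient libraries than in any WT library, and OGT-deficient 1 lay within the WT range. Its log2 fold change was 0.85 with an SE of 0.16 and, in the same edgeR test, an adjusted p of 0.000443.

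The next enzymes on the way to fatty acids rose as well. The acetyl-CoA carboxylase gene Acaca went from 157.2 ± 15.5 to 280.6 ± 17.0 CPM without overlap (log2 fold change 0.84, adjusted p = 5.38e-06). Fatty acid synthase (Fasn) went from 488.1 ± 112.0 to 828.1 ± 163.6 CPM, with OGT-deficient 1 just under WT 3 (log2 fold change 0.76, adjusted p = 0.00173). The elongase gene Elovl6 rose by 0.63 and the desaturase gene Scd2 by 1.69. Other genes of the list fell, among them Acss2, which makes acetyl-CoA from acetate (203.1 ± 32.9 to 73.9 ± 8.77 CPM, log2 fold change -1.46), and the cytosolic malate dehydrogenase gene Mdh1 (518.8 ± 48.4 to 98.4 ± 8.46 CPM, log2 fold change -2.40, adjusted p = 4.55e-09). The lipogenic transcription factor genes Srebf1 and Mlxipl fell by 1.23 and 1.37, and the desaturase gene Scd1 fell by 0.95.

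**Figure D4:**
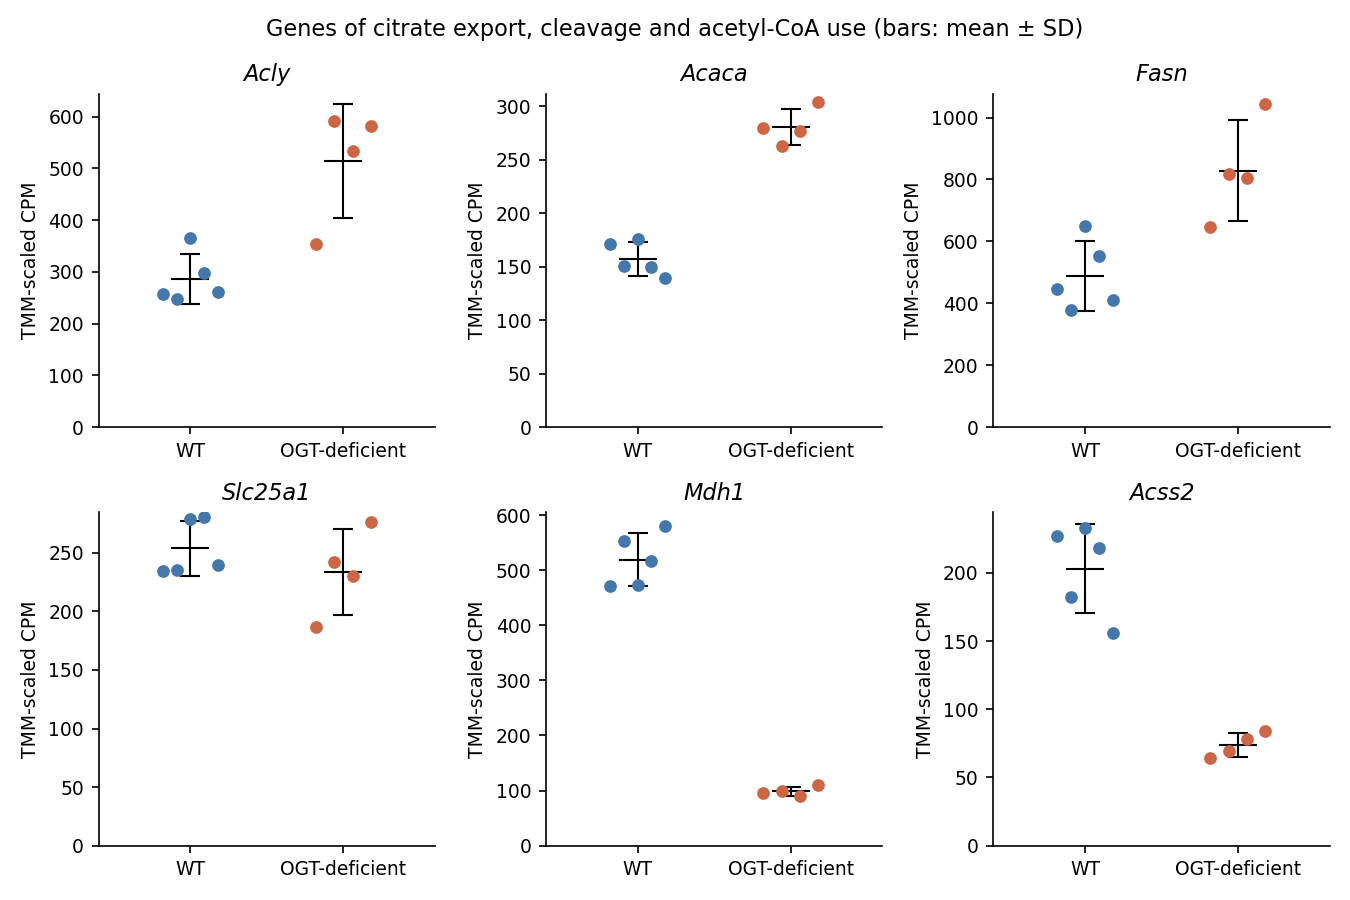
TMM-scaled CPM of 6 genes of citrate export, citrate cleavage and acetyl-CoA use. Points are libraries, long bars group means and whiskers 1 SD (n = 5 WT, n = 4 OGT-deficient). Acly, Acaca and Fasn were higher, Slc25a1 overlapped, and Mdh1 and Acss2 were lower without OGT.

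Among 11 mitochondrial carboxylate carriers 1 rose and 7 fell (median -0.51). The citrate carrier gene Slc25a1 went from 254.0 ± 23.6 to 233.8 ± 36.9 CPM and was not called (log2 fold change -0.12, adjusted p = 0.374). The dicarboxylate carrier gene Slc25a10 fell by 0.51 and the aspartate-glutamate carrier gene Slc25a12 fell by 1.24, while Ucp2 rose by 0.76. Of 21 genes of the tricarboxylic acid cycle and pyruvate carboxylation 16 fell and 1 rose (median -0.38). Citrate synthase (Cs, 0.15, adjusted p = 0.123) was not called. Suclg1 fell by 1.09, Idh3g fell by 0.98 and Sdhb, a subunit of the enzyme that oxidises succinate, fell by 0.89. The member that rose was Idh2, by 0.77. Of 19 cholesterol synthesis genes 2 rose, among them Mvd, and 8 fell (median -0.37), among them Insig1 and Pmvk.

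For the dicarboxylates that SLC13A3 carries, 8 of 10 genes of their receptors and enzymes were tested, of which 4 rose and 3 fell. The gene of the enzyme that cleaves N-acetylaspartate, Aspa, fell from 9.51 ± 1.40 to 3.16 ± 0.280 CPM (log2 fold change -1.58, adjusted p = 1.28e-06), and Nat8l, whose product makes N-acetylaspartate, stood at 0.0902 ± 0.0506 CPM in WT and at 0.334 ± 0.0425 CPM without OGT. The succinate receptor gene Sucnr1 fell by 0.39 (adjusted p = 0.0311), with overlap between the groups, and the call was lost with upper-quartile scaling (adjusted p = 0.123) and in limma voom (adjusted p = 0.0544). Without WT 2, WT 4, WT 5 or OGT-deficient 3 the adjusted p of Sucnr1 was 0.0741, 0.0578, 0.0793 or 0.078. The glutathione-cleaving enzyme genes Ggt1 and Ggt6 differed in direction, with Ggt1 at 0.0841 ± 0.0612 against 0.613 ± 0.199 CPM and Ggt6 lower (log2 fold change -1.80, adjusted p = 1.09e-06). Irg1, also counted as higher, stood at 0.214 ± 0.0806 CPM in WT and at 0.424 ± 0.165 CPM without OGT, with overlap. Nat8l, Ggt1 and Irg1 passed the filter through the OGT-deficient libraries alone, so no p is given for them. Of the list, 2 genes rose without OGT-deficient 1 or OGT-deficient 3.

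Other plasma membrane carriers of organic acids moved in both directions. Of 20 listed genes 16 were tested, of which 5 rose and 7 fell (median -0.19). The lactate and ketone body carrier gene Slc16a1 went from 39.3 ± 7.38 to 75.9 ± 7.11 CPM without overlap (log2 fold change 0.95, adjusted p = 3.80e-05). Slc5a8, a sodium-coupled monocarboxylate carrier, had 0 counts in all 5 WT libraries and 21 to 47 counts in the OGT-deficient ones. Against a floor of 3 counts over the WT group its level of 0.784 ± 0.195 CPM was at least 50.3-fold higher. Slc5a8 passed the filter through its OGT-deficient libraries alone, so no p is given. Slc1a1, a glutamate carrier, had 5 counts over the WT libraries and 264 over the OGT-deficient ones. It too passed the filter through the OGT-deficient libraries alone, and other genes cover 31.9% of its exonic bases. The carrier genes Slc1a2, Slc16a11 and Slc16a12 fell, with log2 fold changes of -1.40, -1.96 and -1.91. The organic anion transporter gene Slc22a7 went from 50.5 ± 7.46 to 25.3 ± 5.00 CPM (adjusted p = 7.41e-05).

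For sulfate, the anion of Slc13a1 and Slc13a4, the transcript of the liver exchanger Slc26a1 stood at 194.4 ± 22.4 CPM with OGT and 194.0 ± 47.4 CPM without it (adjusted p = 0.986). Of 17 tested genes of sulfate transport and sulfation 3 rose and 9 fell (median -0.37). Papss2, which makes the sulfate donor, fell by 1.54, and the sulfotransferase genes Sult2a8 and Sult5a1 fell by 2.79 and 4.57. Those that rose were Slc26a6, Papss1 and Bpnt1.

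Work in other systems has connected SLC13A5 with several inducers, among them the xenobiotic receptor PXR in human hepatocytes, the receptor AhR in rat hepatocytes, glucagon acting through CREB in rat and interleukin 6 acting through STAT3 in human hepatocytes. Lists of these receptors and of their usual targets were read beside Slc13a5. Among 9 tested genes of the AhR list 4 rose and 2 fell (median 0.12). Ahr was not called (58.3 ± 10.6 and 48.3 ± 5.16 CPM, adjusted p = 0.0849, and 0.0321 without WT 1 or 0.0441 without WT 3). The AhR target Cyp1a1 measured 0.694 to 1.13 CPM in WT and 1.6, 0.857, 1.62 and 2.4 CPM in OGT-deficient 1 to 4. OGT-deficient 2 lay within the WT range. The log2 fold change was 0.87 (adjusted p = 0.0193, and 0.0924 without OGT-deficient 4). Cyp1b1 rose by 2.06 and Nqo1 by 2.33, while Cyp1a2, the abundant AhR target of liver, went from 1016.6 ± 98.6 to 473.1 ± 151.0 CPM (adjusted p = 0.000187).

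Of 13 genes of the PXR and CAR list 2 rose and 7 fell (median -0.61). The PXR gene Nr1i2 was not called (76.0 ± 8.14 and 77.5 ± 17.8 CPM, adjusted p = 0.877), and the CAR gene Nr1i3 fell by 2.90, with 74.9% of its exonic bases covered by other genes. The PXR target Cyp3a11 went from 3034.6 ± 825.9 to 4850.0 ± 612.4 CPM with overlap (log2 fold change 0.68, adjusted p = 0.00523), Gstm1 rose by 1.40, and Ces2a and Slco1a4 fell by 1.48 and 0.98.

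The CREB and glucagon list had 4 of 14 genes higher and 3 lower (median 0.11). The glucagon receptor gene Gcgr fell from 317.2 ± 30.8 to 127.4 ± 14.0 CPM (adjusted p = 4.94e-07). Creb1 (19.4 ± 1.20 and 21.2 ± 2.74 CPM, adjusted p = 0.257) and the gluconeogenic target Pck1 (3901.9 ± 1191.4 and 3788.0 ± 1046.1 CPM, adjusted p = 0.880) were not called, although with upper-quartile scaling Creb1 had an adjusted p of 0.0429. The coactivator gene Crtc2 fell by 0.85. The nuclear receptor gene Nr4a1, which cAMP can induce, stood at 0.902 to 1.88 CPM in WT and at 22.3, 25.7, 10.1 and 10.2 CPM in OGT-deficient 1 to 4 (log2 fold change 3.57, adjusted p = 1.58e-06). The glycogen phosphatase subunit gene Ppp1r3g rose by 3.66. Nr4a3, also counted as higher, had 1 to 11 counts per WT library and 18 to 39 per OGT-deficient library. Nr4a3 passed the filter through the OGT-deficient libraries alone, so no p is given.

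The interleukin 6 list had 1 of 13 genes higher and 4 lower (median -0.15). The receptor gene Il6ra fell from 62.2 ± 12.1 to 31.1 ± 3.35 CPM (adjusted p = 3.07e-05). Stat3 (adjusted p = 0.507) and its target Socs3 (19.3 ± 9.43 and 12.1 ± 3.24 CPM, adjusted p = 0.0860) were not called, and Socs3 had an adjusted p of 0.0088 without WT 5. Lcn2 rose by 2.76, and the acute phase genes Fgb and Crp fell by 0.91 and 0.70.

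**Figure D5:**
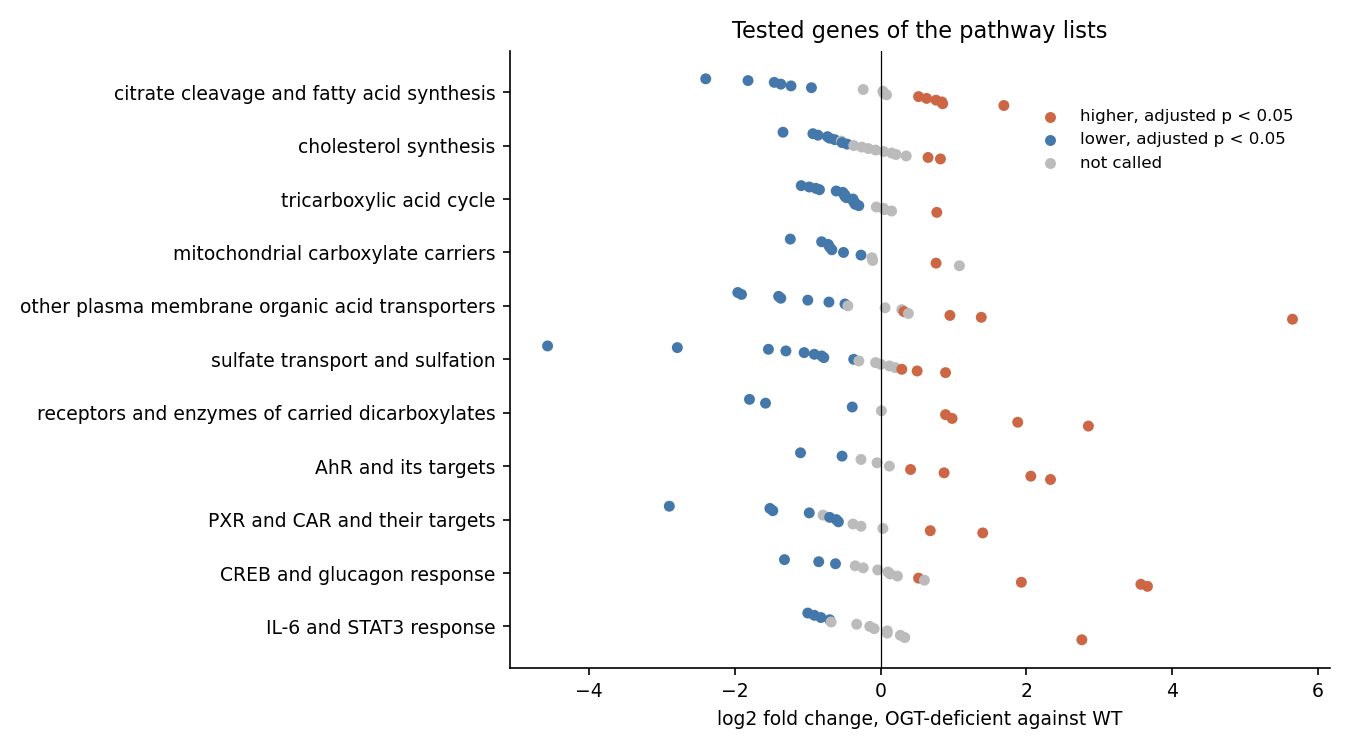
Log2 fold change of each tested gene of the 11 lists, a point per gene, coloured by its call at an adjusted p under 0.05 in edgeR's quasi-likelihood test. Slc5a8, at 0 in WT, is left out. The colour of Slc1a1, Nat8l, Ggt1, Irg1 and Nr4a3 is not read, since these genes passed the filter through the OGT-deficient libraries alone. Most points of the tricarboxylic acid cycle and mitochondrial carrier lists lie below 0, and those of citrate cleavage and fatty acid synthesis fall on both sides.

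The genes whose log2 CPM followed that of Slc13a5 most closely over the 9 libraries, among 9795 genes averaging at least 5 CPM, were Mr1 (Pearson r = 0.9958), A830010M20Rik (0.9955), Rmdn3 (0.9936), Rrp15 (0.9923) and the beta-actin gene Actb (0.9916). The libraries fall into 2 groups, and 469 of these genes had an r over 0.95, since genes with the same split share a high r. Mr1, which encodes an antigen-presenting molecule, went from 4.94 ± 0.333 to 16.5 ± 1.58 CPM. Over the deviations from the group means r was 0.64, 0.31, 0.73, 0.04 and 0.19 in the same order.

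Markers of other cell types differed between the same libraries. In bulk liver, fewer cells of a type and less RNA per cell cannot be told apart. Of 11 tested hepatocyte markers 10 fell and 0 rose, with a summed level of 108608.2 to 128856.4 CPM in WT and 47360.6 to 59719.0 CPM in OGT-deficient libraries. Ass1, also on that list, was counted at 0.144 ± 0.0892 CPM in WT and 0.133 ± 0.0482 CPM without OGT and did not pass the filter. Cps1 of the same list stood at 4847.5 ± 505.0 CPM in WT. Whether the Ass1 counts measure the level of its transcript was not tested. Of 12 cholangiocyte markers 11 rose and 1 fell (summed level 50.3 to 81.2 against 175.1 to 310.1 CPM), and of 12 stellate cell markers 11 rose (232.0 to 495.6 against 1010.2 to 1392.1 CPM). Of 12 macrophage markers 7 rose (515.1 to 741.5 against 527.2 to 908.4 CPM), of 10 endothelial markers 1 rose and 4 fell (402.7 to 555.7 against 256.5 to 477.3 CPM), and of 9 neutrophil and lymphocyte markers 3 rose and 1 fell (15.8 to 20.7 against 18.5 to 33.7 CPM). Among the counted risers, the cholangiocyte markers Cldn4 and Cftr and the macrophage marker Gpnmb passed the filter through the OGT-deficient libraries alone. Their WT levels were 0.13 ± 0.106, 0.0506 ± 0.0325 and 0.245 ± 0.162 CPM, against 2.44 ± 0.964, 1.19 ± 0.284 and 8.44 ± 3.26 CPM, and their calls are not read. With a library left out, 5 to 8 macrophage markers rose. The endothelial count and the neutrophil and lymphocyte count also depended on single libraries. Endothelial markers that fell numbered 1 without WT 1, WT 3 or OGT-deficient 1 and 2 without OGT-deficient 4, and those that rose numbered 2 without OGT-deficient 4. Neutrophil and lymphocyte markers that rose numbered 1 without WT 3, WT 4, OGT-deficient 1, OGT-deficient 2 or OGT-deficient 3. Those that fell numbered 2 without OGT-deficient 2, 1 without WT 4 and 0 without any other library. No listed marker was at 0 in all libraries. The part of these markers in the levels of Slc13a5, Slc13a3 and Slc13a2 was not tested.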

How the data were processed

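The submitters' processing notes name TopHat2 (version 2.1.0), HTSeq (version 0.9.1) and, as genome, mm10 or GRCm38. Unnormalized read counts per gene symbol were deposited by the authors for each of the 9 libraries. The 5 summary lines of each table entered no library size or test. Reads outside genes were 8.95 to 10.7% and reads over several genes 1.78 to 2.17% of assigned, ambiguous and unassigned reads together. The annotation, strand setting and library kit were not given in the sources used here. Each library stands for a mouse, since the design gives equal numbers of both. Within groups, 16 pairs of libraries differed beyond sampling noise (chi-square per degree of freedom 23.9 to 135.0).

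The analysis used edgeR 4.0.16 in R 4.3.3, with filterByExpr (minimum count 10), TMM scaling and a quasi-likelihood test whose single factor was the group. Benjamini-Hochberg adjustment ran over 14104 genes at a threshold of 0.05. All adjusted p-values come from this fit unless another tool is named. It was also tested on simulated data for OGT-deficient against WT, with counts drawn for 13463 genes. Most were left unchanged, and 13222 unchanged genes passed the filter. There the fit recovered 23.8%, 84.6% and 100% of genes changed by 0.5, 1 and 2 on the log2 scale. In the measured data 61.1% of genes were called, and recovery with so large a share changed was not tested. A gene not called may still differ by 1 or less. A prior count of 2 enters log2 CPM. Exon lengths and positions come from GENCODE mouse release M21 (GRCm38), matched to 23376 symbols directly and 650 by synonym, and windows around starts from RefSeq.

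The members and lists were chosen with earlier results of these data known. The rule for named genes took all members, up to 3 called genes with the smallest p per list and direction, a set of key genes, the 5 genes most like Slc13a5 and the neighbours. Alb, Ass1, Cs, Irg1, Scd1, Mlxipl, Slc22a7, Slc13a2os and 1700051A21Rik were chosen after their values were seen. Some genes that the rule named are not reported here. Alternatives were other scalings and filters, DESeq2 1.42.0, limma voom (limma 3.58.1), the replicate number as a block, leaving out each library, and the longest transcript as the length.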

Additional observations from a re-analysis of the deposited data

Results flagged for a closer look

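Values standing apart from the rest of their group were looked for in 119 named genes, 233 sets of 4 or 5 libraries in all, and 10 were found. Chance gives about 1 in 20 sets, so 10 in 233 sets is no more than chance gives. Slc13a2 in WT 4 was the only such value of a family member, at 1.32 CPM, with a gap to the next WT library of 0.789 of the group's range. WT 4 also stood above the other controls for Il6ra (83.5 CPM) and Papss2 (212.9 CPM). WT 3 was the highest control for Cygb (13.4 CPM), Elovl6 (118.3 CPM) and Zfp334 (2.86 CPM), and WT 1 for Epcam (2.03 CPM). Ccr2 was lowest in WT 5 (0.805 CPM). In OGT-deficient liver, 1810058I24Rik was lowest in OGT-deficient 3 (55.3 CPM) and S100a9 in OGT-deficient 4 (0.93 CPM).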

How the results depend on the processing

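The log2 fold changes of Slc13a5, Slc13a3, Slc13a2 and Slc13a4 kept their direction under every alternative in which they were fitted. Slc13a2 and Slc13a4 did not pass a filter of CPM 1 in 4 libraries. Leaving out each library in turn gave 4.55 to 4.68 for Slc13a5, -3.66 to -3.23 for Slc13a2, 1.11 to 1.37 for Slc13a3 and 0.13 to 0.49 for Slc13a4. The number of genes called was within 1.5 times the main count throughout. Upper-quartile factors moved the median over all genes, as log2 fold change, from 0.0218 to 0.145 and the share of higher genes among those called from 51.8 to 62.5%. With the longest transcript as length, the ratio of Slc13a5 to Slc13a3 in OGT-deficient liver was 0.926 in place of 0.924.

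List counts that changed were small. With upper-quartile factors the genes that rose numbered 2 for the tricarboxylic acid cycle, 2 for mitochondrial carriers and 4 for the interleukin 6 list. With a filter of CPM 1 in 4 libraries they numbered 3 for the other organic acid carriers, 1 for the receptors and enzymes of dicarboxylates and 2 for the interleukin 6 list, since fewer genes were tested. The interleukin 6 list had 2 with DESeq2 and 2 with limma voom. Leaving out a library gave 1 to 2 higher genes for mitochondrial carriers (2 without WT 3, WT 4 or OGT-deficient 2). For interleukin 6 it gave 1 to 2 (2 without WT 1 or OGT-deficient 1). For the receptors and enzymes it gave 2 to 4 (2 without OGT-deficient 1 or OGT-deficient 3). The AhR list and the CREB and glucagon list each had 3 to 5 higher genes with a library left out. The PXR and CAR list and the cholesterol synthesis list each had 7 to 9 lower genes. The cause was not tested for the others.

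Genes near 0 that were not called changed sign. With upper-quartile factors the log2 fold change was 0.00 for Slc25a1, 0.11 for Slc26a1, 0.08 for Pck1 and 0.04 for Cnot4, and with the stricter filter 0.03 for Slc26a1. Without single libraries the ranges were -0.12 to 0.13 for Slc26a1, -0.14 to 0.14 for Nr1i2, -0.21 to 0.15 for Pck1, -0.01 to 0.14 for Stat3, -0.07 to 0.11 for Slc46a1 and -0.05 to 0.23 for Zfp334.

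Same-numbered libraries deviated together with correlations of -0.103 to 0.104, so the replicate number was not taken to pair mice. With the replicate block 7869 genes were called in place of 8614, Slc13a5 had a log2 fold change of 4.65, and Nr1i2 and Slc46a1 had -0.05 and -0.02. Cyp1a1 and Sucnr1 lost their calls under the block (adjusted p = 0.093 and 0.101 in edgeR) and Socs3 gained one (0.00546). The number 5 occurs only in WT, so the block also takes WT 5 out of the group contrast. Depth limits Slc13a1, with at most 2 counts in a library, and Slc13a2 and Slc13a4, with at most 38 and 19.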
